A study of Mus musculus with 2 samples.

Results

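Rian is a long non-coding RNA (lncRNA) gene of the imprinted Dlk1-Dio3 domain on mouse chromosome 12, and the values given here are those of its transcript uc011ysu.1 in the hippocampus of aged mice with and without surgery. The transcript was chosen by its symbol in the study's annotation of changed lncRNAs, in which 1 of 726 different probes carries the symbol Rian, of 60930 probes on the array. That annotation had been drawn up from these same arrays by a change of at least 2-fold, so that the decrease of Rian chose it and is given as a description. Any probe of Rian that did not change could not be named and is not described. Male C57 mice (C57BL/6 in the methods), aged 16 to 18 months, were compared in 2 groups of 3. The surgery group underwent unilateral nephrectomy, a model of postoperative cognitive dysfunction, under ketamine and xylazine anesthesia with local ropivacaine and saline afterwards. The control group received no specific treatment, so that anesthesia and surgery cannot be told apart. Hippocampal tissue was taken on day 3 after surgery, the RNA of the 3 mice of a group was pooled, and 1 one-color array was hybridized with each pool. The methods describe a repeated assay, but 1 array per group was analysed here. The spread between mice therefore cannot be known from these arrays, and no test was run.

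Imprinted genes are expressed mainly from the allele of one parent. In the Dlk1-Dio3 domain the protein-coding genes Dlk1, Rtl1 and Dio3 are expressed from the paternal allele, and the non-coding genes Meg3, Rian and Mirg from the maternal allele. Meg3, Rian and Mirg are transcribed from the same strand and are host to many small RNAs, with C/D box small nucleolar RNAs (snoRNAs) in introns of Rian and clusters of microRNAs on either side. Rian is known as a nuclear RNA that is abundant in neurons of the adult brain.

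Transcript uc011ysu.1 occupies positions 109645847 to 109661711 of chromosome 12 (GRCm38, plus strand) and has a spliced length of 2644 bases over 15.9 kb of genome. RefSeq places Rian (NR_028261.1) from 109603945 to 109661716. The transcript on the array thus begins 41.9 kb downstream of the RefSeq start and ends 5 bp before the RefSeq end. RefSeq lists 3 microRNA genes (Mir341, Mir1188 and Mir370) and 11 snoRNA genes inside Rian, and 8 of the snoRNA genes and 0 of the microRNA genes lie inside uc011ysu.1. No probe of these small RNA genes could be named, so that the values below describe the host transcript alone.

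The probe of 60 bases is shown because every value of Rian below comes from this single sequence. Its bases span 1234 bp of genome (chr12:109656819-109658052, plus strand), so that it crosses spliced exons, and the snoRNA gene LOC115488050 (109657125 to 109657196) lies between its ends. The study's qRT-PCR primers for the same transcript are shown with it, since they mark a second way of measuring this RNA, although the qRT-PCR values were not analysed here. No letters are set apart in capitals.
Rian array probe: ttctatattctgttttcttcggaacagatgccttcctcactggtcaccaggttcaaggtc
Rian forward primer: tgtcacggtcagctctgttc
Rian reverse primer: agtgccaatcccattgaggg
The GC content of the probe was 45%, equal to the median of the 1172 probes whose sequence was given (highest 81.7%). The longest run of bases that it shared with any other of these probes was 11 on the same strand and 12 on the opposite strand. The annotation lists no other transcript as cross-hybridizing with it.

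Rian was bright on the control array and much dimmer on the surgery array. Its processed signal, the background-corrected intensity in arbitrary units, was 2390 ± 239 in the control pool and 265 ± 26.7 in the surgery pool. The error is the one that the scanner software gives for a spot. It comes to at most 10.1% of the signal and covers the measurement on the array, not the mice. After quantile normalization the values were 11.17 and 8.13 on the log2 scale, a log2 ratio of surgery over control of -3.03 with a spot error of 0.21. The level was thus 8.18-fold lower after surgery, with 7.10-fold and 9.43-fold at 1 spot error on either side, and 12.2% of the control level remained. In RNA of whole tissue, fewer cells that express a transcript and less of it per cell cannot be told apart.

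The pixels of the spot gave the same picture. The median pixel was 2504 in the control pool and 313 in the surgery pool, over a local background of 20 and 19. The spot was well above background on both arrays, was not saturated, and carried 0 of the software's outlier or manual marks on either array. Copies of the same probe differed little, as 15 measured probes are printed more than once and the SD among their copies was 0.06 in the median and at most 0.21 (log2 ratio). The change of Rian was larger than that, but a change of at least 2-fold chose it, so that nothing is read from this. The probe of Rian has 1 spot per array, and precision is limited by there being 1 array per group.

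In the order of all measured probes Rian stood near the lower end. Measured probes, those above background by the scanner software's calls on each array, numbered 44044. Among them 858 (1.95%) had a decrease of at least 2-fold after surgery and 647 (1.47%) an increase of that size. Rian was 1 of 4 probes (0.00908%) that were at least 8-fold lower, and it ranked 4 from the largest decrease. The 3 probes with larger decreases were uc012gtn.1, which overlaps Cyp19a1, the gene of aromatase (log2 ratio -11.23), Tmem59l, the gene of a neuronal membrane protein (-3.74), and a probe without a name (-3.51). With the median pixel the rank was 3. In the authors' normalized values it was 3 over the measured probes and 11 over all 60902 probes of that table. Since the decrease chose Rian, nothing is read from its rank. The log2 ratio had a median of 0.03 over the 5266 measured probes whose control level was within 2-fold of that of Rian, and 2.5% of them lay below -0.91. Among these probes, 78 (1.48%) were at least 2-fold lower. Rian was the lowest of them, and the next, a probe without a name, had a log2 ratio of -2.999.

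**Figure D1:**
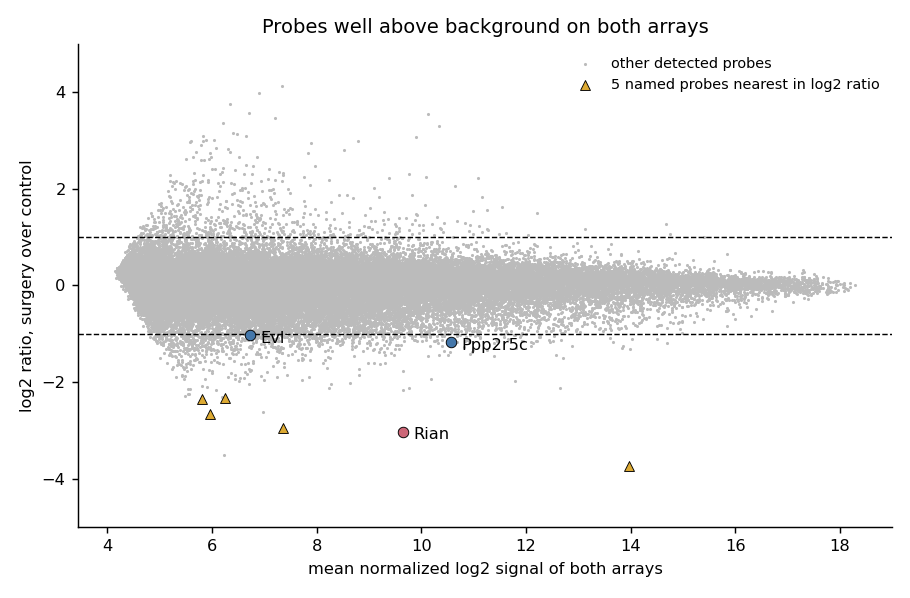
Log2 ratio of surgery over control (vertical axis) against the mean normalized log2 signal of both arrays (horizontal axis) for the 44044 measured probes, 1 point per probe, with dashed lines at a 2-fold change. Rian is at -3.03, and an unnamed probe of much the same level lies beside it at -2.999. Evl and Ppp2r5c lie just past 2-fold. The triangles are the 5 named probes nearest to Rian in log2 ratio, and 1 point (uc012gtn.1) lies below the axis.

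The spots around Rian were compared on both arrays, since its probe is printed once, in row 7 and column 79 of 384 rows and 164 columns. The array is packed so that 6 spots lie within 45 μm of the center of the Rian spot. Among these are 4 spots of other transcripts and 2 control spots, and 4 of the 6 were dimmer on the surgery array. A spot of Hk1, the gene of hexokinase 1, the enzyme of the first step of glycolysis, was measured at 236 ± 23.8 in the control pool and 99.2 ± 10.6 in the surgery pool, a normalized log2 ratio of -1.10. An unnamed probe in row 9 of the same column had 638 ± 63.9 and 306 ± 30.8, a log2 ratio of -0.89. Both of these spots were well above background on both arrays. Their spot errors were 0.21 and 0.20, much like the median of 0.21 over the measured probes.

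An unnamed probe in row 5 of that column had 33.3 ± 4.71 in the control pool and 3.96 ± 3.87, not well above background, in the surgery pool. The remaining dimmer spot carried a positive control sequence of the array design, with 125 ± 12.9 and 68.8 ± 7.89. This control sequence has 11 other copies, which ranged from 60.8 to 113 on the control array and from 55.7 to 83.6 on the surgery array. The copy beside Rian was thus the brightest of all copies on the control array, where it was marked as a population outlier, as 1 other copy was, and it lay among the other copies on the surgery array. The remaining touching spots did not show this difference. A bright unnamed probe in row 8 had 19557 and 20868, and a negative control spot was at the level of no signal, with 3.31 and 3.83. The local background at the touching spots was between 18 and 21 on both arrays.

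The differences in raw signal, control minus surgery, were smaller at these spots than at Rian. They were 332 in row 9, 137 at Hk1, 56.3 at the positive control spot and 29.4 in row 5, beside 2125 at Rian. By the median pixel, the Hk1 spot had 296.5 in the control pool and 151 in the surgery pool, and the spot in row 9 had 690 and 367. The positive control spot had 172 and 116, and the spot in row 5 had 76.5 and 54.5. All of these differences were under 2-fold. The control array was the brighter one at each of these spots by either summary.

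**Figure D2:**
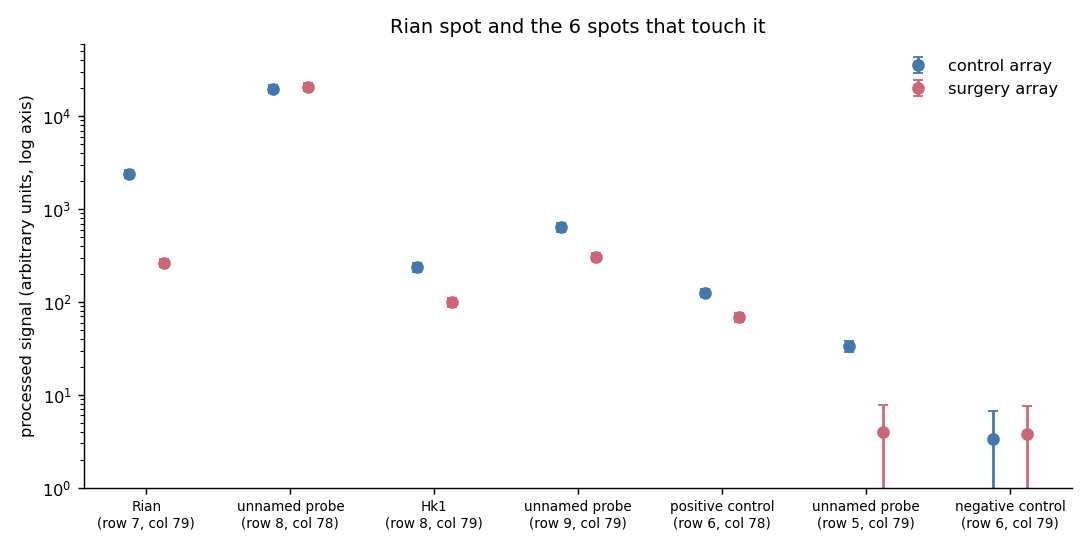
Processed signal (vertical axis, log scale, arbitrary units) of the Rian spot and of the 6 spots within 45 μm of it on the control array and the surgery array, with the spot error given by the scanner software as bars, which leave the axis where they reach below 1. Rian is at 2390 and 265, the spots of Hk1, of rows 9 and 5 in column 79 and the positive control are also brighter on the control array, and the unnamed probe in row 8 and the negative control are not.

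The same count was made around every measured probe with 1 spot, a choice made after these values were seen. Before any filter on detection, 4.52% of all spots were at least 2-fold lower. Around Rian, 2 of the 4 touching spots of other transcripts were at least 2-fold lower, those of Hk1 and of row 5. Among the 8 neighbors by row and column, some of which lie farther off, 6 were spots of other transcripts, and Hk1 alone was at least 2-fold lower, while the other 5 lay between -0.18 and 0.27 (log2 ratio). Of 44029 measured probes, 1423 (3.23%) had at least 2 touching spots of other transcripts that were at least 2-fold lower by the processed signal. So had 68 (7.93%) of the 858 that were at least 2-fold lower and 10 (38.5%) of the 26 that were at least 4-fold lower. These probes had 6 touching spots of other transcripts in the median, compared with 4 for Rian. Of the 581 measured probes that also had 4, 9 (1.55%) had at least 2 that were at least 2-fold lower, and of the 9 among the 581 that were themselves at least 2-fold lower, Rian alone did. Wider around Rian the difference was no longer seen in the median. Within 100 μm, 18 measured spots had a median log2 ratio of -0.02, and 1 was at least 2-fold lower. Within 200 μm, 64 measured spots had a median of 0.03, and 4 were at least 2-fold lower and 0 at least 2-fold higher. In the first 14 rows of the array, where Rian lies, 4.13% of the measured spots were at least 2-fold lower. The share was 3.56% in the final 14 columns, to which Rian does not belong, and 1.83% in the other columns. The part of the position on the array in the value of Rian was not tested.

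Around Rian on the chromosome, 4 other named probes have a transcript within 1 Mb of either end of uc011ysu.1, among 131 genes that RefSeq lists there. All of them come from the same annotation of changed transcripts, so that each was at least 2-fold changed in the authors' values by selection, and probes that did not change there cannot be named. No probe of Dlk1, Meg3, Rtl1, Mirg or Dio3 could be named. Of 12 genes listed for the domain, Rian alone has a named probe. The probes of both noncoding neighbors are shown because they lie within the domain, on the same strand as Rian, between Dlk1 and Dio3.
mouselincRNA0353+ array probe: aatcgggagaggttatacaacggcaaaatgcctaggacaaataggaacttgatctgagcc
TCONS_00006820 array probe: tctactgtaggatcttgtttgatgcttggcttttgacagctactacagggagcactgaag

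The lincRNA mouselincRNA0353+ (plus strand, 109499911 to 109531085) lies 115 kb upstream of uc011ysu.1, between the end of Dlk1, 36.6 kb away, and the start of Meg3, 9.91 kb away. Its probe (chr12:109512007-109512066) gave 66.9 ± 7.55 in the control pool and 4.32 ± 4.18 in the surgery pool, the second of these not well above background. Its normalized processed signal was at least 3.37-fold lower after surgery, taken against the dimmest normalized signal (18.9) that passed as well above background there. This bound leaves out the spot error. Its median pixel, from which no background is subtracted, was 109 and 62, under 2-fold. The spot sits at the right edge of the array (column 164), and 5 of the 6 spots that touch it were at least 2-fold lower as well. This probe and Rian thus had the same direction. Of the spots of other transcripts that touch Rian, 2 of 4 were at least 2-fold lower. The part of the position on the array in either value was not tested.

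TCONS_00006820 (plus strand, 109949332 to 109953274), an intergenic transcript of 353 bases, lies 288 kb downstream of uc011ysu.1, 199.9 kb past the end of Mirg and 326 kb before the start of Dio3. It gave 8.55 ± 3.66, not well above background, in the control pool and 36.6 ± 5.61 in the surgery pool. Its normalized processed signal was at least 2.42-fold higher after surgery, a bound that again leaves out the spot error. Its median pixel was 59 and 89.5, under 2-fold, and its spot also belongs to the final 14 columns. Within the domain, the direction of this dim transcript was opposite to that of Rian.

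Both other neighbors are protein-coding and lie outside the part of the domain from Dlk1 to Dio3. Evl, the gene of an actin regulator of the Ena/VASP family, lies 957 kb upstream and was measured at 160.4 ± 16.4 and 70.3 ± 7.94. Its log2 ratio was -1.04 with a spot error of 0.22, and with the median pixel it was -0.70, under 2-fold. Ppp2r5c, the gene of a regulatory subunit of protein phosphatase 2A, lies 785 kb downstream and was measured at 2364 ± 236 and 957 ± 95.8, a log2 ratio of -1.18 with a spot error of 0.20. Its control signal was much like that of Rian, and its decrease was the smaller one. Among the spots that touch those of Evl and Ppp2r5c, 0 and 1 were at least 2-fold lower.

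**Figure D3:**
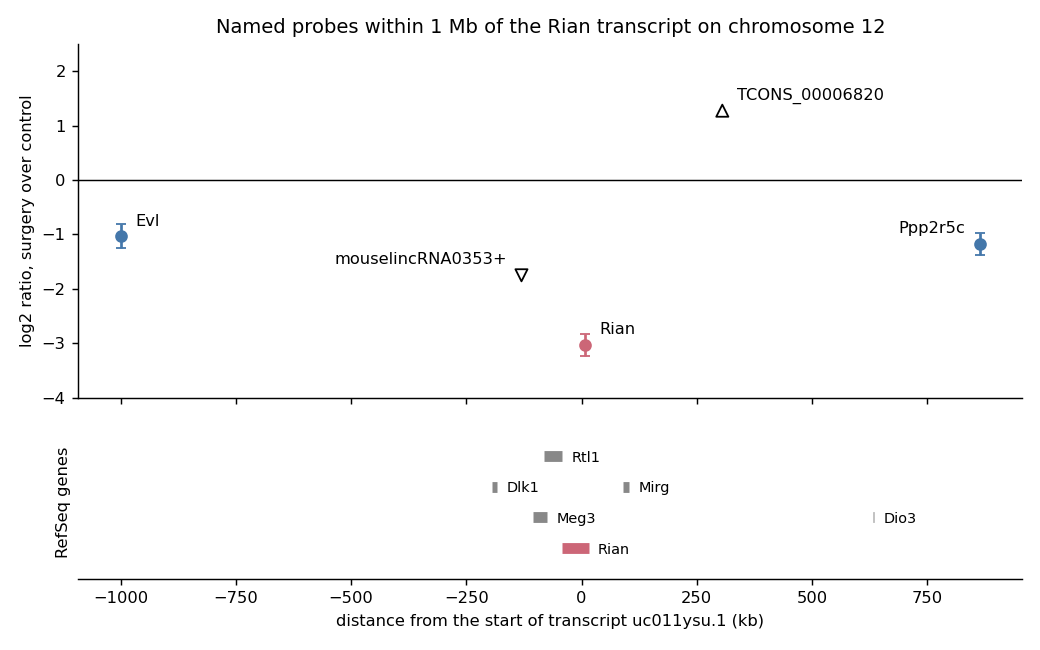
Log2 ratio of surgery over control (vertical axis) of the named probes within 1 Mb of the Rian transcript, by distance of the middle of the transcript from the start of uc011ysu.1 (horizontal axis, kb), above the RefSeq genes of the domain. Circles with bars are probes measured on both arrays with their spot error. Open triangles are bounds of probes well above background on 1 array. Rian is the lowest point as drawn, with TCONS_00006820 alone above 0. mouselincRNA0353+ is drawn at its bound, and its log2 ratio without the bound was -3.96 with a spot error of 1.40.

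Other imprinted genes could be named only where the annotation held them. Of 20 imprinted noncoding RNAs, Rian alone has a named probe, so that H19, Kcnq1ot1, Airn and the others are not described. Of 45 protein genes listed as imprinted, 3 have one. Copg2, the gene of a coatomer subunit, is represented by a noncoding transcript that overlaps it (ENSMUST00000122833), at 257 and 89.5, a log2 ratio of -1.36. Inpp5f, the gene of a phosphoinositide phosphatase, had 179 and 78.3, a log2 ratio of -1.05. Slc22a2, the gene of an organic cation transporter, had 29.1 and 95.2, a log2 ratio of 1.83. The probes named for these 3 genes thus had both directions, and their spot errors were between 0.21 and 0.27. Whether the transcripts measured are imprinted in the hippocampus was not examined. None of 10 genes of snoRNA-binding and related proteins, among them fibrillarin (Fbl), Nop56 and Nop58, which form C/D box particles, has a named probe.

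Markers of cell types were listed to check the tissue and what else moved with Rian. None of 8 neuronal markers, 6 markers of hippocampal subfields, 4 of astrocytes, 4 of microglia and 3 of endothelium has a named probe, so that the labelled tissue could not be checked. Of 9 meningeal markers, 6 have named probes, and their 7 probes were all higher in the surgery pool by at least 2-fold (log2 ratios of 1.04 to 3.29, median 2.22). The annotation by which they are named holds changed probes alone. The highest was that of Slc47a1, the gene of an organic cation exporter, at 439 and 3977. Of 4 markers of the choroid plexus, Clic6 alone has a named probe, with a log2 ratio of -1.38. The part of a different share of tissues in the value of Rian was not tested.

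The named probes whose log2 ratio over the 2 arrays was nearest to that of Rian were found by the absolute difference. Gm26789, an lncRNA (ENSMUST00000181342) on chromosome 10, gave 483 and 56.3 and was nearest, at -2.95, a difference of 0.08 that is within the spot errors (0.21 and 0.23). Nsun4, the gene of a methyltransferase of mitochondrial ribosomal RNA, followed with 166 and 24.1, a log2 ratio of -2.66 and a difference of 0.37. It was followed by humanlincRNA1697- (133 and 23.9, log2 ratio -2.35) and TCONS_00002219 (180.2 and 32.7, log2 ratio -2.33). Tmem59l, with 56485 and 4344, was the fifth, with a log2 ratio of -3.74, a difference from Rian of -0.71. None of the 5 lies on chromosome 12. The spots of 4 of them belong to the final 14 columns, those of Rian and Tmem59l do not, and likeness over 2 arrays is a likeness of 1 ratio only.

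The value of Rian moved little with the way the signals were processed. Over the 8 alternatives that could change it, the log2 ratio lay between -3.18, without normalization between the arrays, and -2.81, with the normexp background correction, and it was at least 2-fold lower in all 8. In the normalized values that the authors deposited, the levels were 9.47 and 6.39 on the log2 scale, a log2 ratio of -3.07. With the median log2 ratio of the measured spots within 5 rows and 2 columns (0.04) subtracted, it was -3.07 as well. These alternatives use the same 2 spots, so that they say nothing of the spread between mice.

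**Figure D4:**
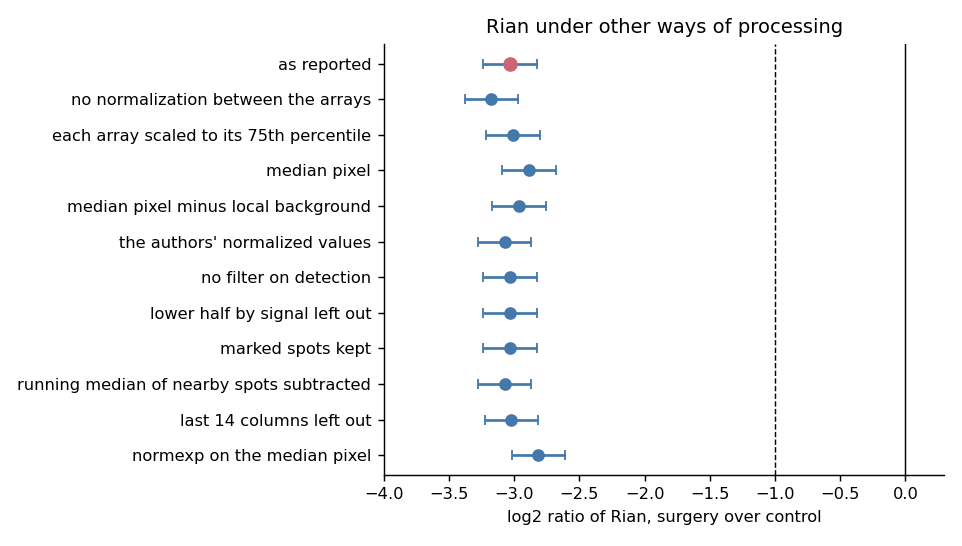
Log2 ratio of Rian, surgery over control (horizontal axis), as reported (top) and under 11 other ways of processing the same 2 spots, of which 3 change only which other probes are kept and so coincide with it, with the spot error of the reported value as bars and a dashed line at a 2-fold decrease. All points lie between -3.18 and -2.81.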

How the data were processed

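Hippocampal RNA of 1 control pool and 1 surgery pool was measured on 2 one-color Arraystar mouse lncRNA arrays, with groups taken from the sample labels. The authors deposited the spot intensity output of Agilent Feature Extraction 11.0.1.1, in which the processed signal is background-subtracted and detrended within each array and not normalized between arrays. Both arrays carry the same scan time. The authors also deposited a table of log2 values after quantile normalization in GeneSpring GX, which was used as an alternative.

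The log2 processed signals of 61500 non-control spots were quantile normalized, copies of a probe were averaged, and spots that the software had marked (non-uniform, population outlier) were dropped. Measured probes passed the software's calls of a significant, well-above-background signal on each array (76.4% and 73.8% of spots were well above background on the control and surgery array). A 2-fold change was counted, and no test was run with 1 array per group. A bound compares the brighter normalized signal with the dimmer one or, if higher, with the lowest signal well above background on that array (15.7 and 18.9). Names, positions and probe sequences came from the study's annotation of changed probes, of which 866 lncRNA rows and 446 mRNA rows were held, the latter shortened. Starts that the annotation counts from 0 were raised by 1. The columns of the authors' own fold changes in it were not used. Gene positions came from RefSeq (GRCm38.p6).

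Named genes were Rian, the annotated probes within 1 Mb, the touching spots, the 5 named probes nearest in log2 ratio and the genes of the lists. Touching spots were to be the 8 neighbors by row and column. The spots nearest by center, which differ because rows are offset, were used in their place after the positions were read. The members and lists were chosen with earlier results of these data known. The calculations were tested on simulated data for this comparison over 44089 probes. These called 100% of the 200 probes that had been altered and 0 of the rest. The simulated noise was smaller than the typical spot error, and the altered probes were bright and changed by more than 2-fold. The test thus checks the arithmetic and not the accuracy on real arrays. The tools were Python 3.11.15 (numpy 2.4.6, matplotlib 3.10.9, pandas 2.3.3, scipy 1.17.1) and, for normexp, limma 3.58.1 in R 4.3.3. Behavioral tests and qRT-PCR were not analysed here.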

Additional observations from a re-analysis of the deposited data

How the results depend on the processing

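The log2 ratio of Rian kept its direction and stayed past 2-fold under the 8 alternatives that could change it (3 others change only which other probes are kept), and it moved by more than its spot error under 1, to -2.81 with the normexp correction. This correction used the median pixel and was chosen after seeing the data, in place of a planned correction on the mean signal, which was not run because the scanner output has no column of it. The number of probes at least 2-fold lower depended on the processing much more. Compared with 858, it was 1483 without normalization, 2748 without the filter on detection, 285 with the probes below the median signal left out, 243 with the median pixel, 356 with the median pixel minus the local background, 191 with the normexp correction and 120 when the decrease had to pass 2-fold by more than 2 spot errors. The median log2 ratio of the measured probes was 0.04, and -0.07 without normalization, a shift of all probes that is small beside the value of Rian. Evl was under 2-fold with the median pixel (-0.70), with the local background subtracted from it (-0.84) and with the normexp correction (-0.65), and Ppp2r5c stayed at least 2-fold lower under all 8. No paired analysis was possible because each group has 1 array. With 1 array per group, leaving out a replicate was not possible either.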
